A study of Homo sapiens with 9 samples.

Results

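The genes described here encode the proteasome, the factors that assemble it, the particles that activate or inhibit it, and NFE2L1, a transcription factor of proteasome genes. They were chosen by symbol as protein-coding genes named PSMA, PSMB, PSMC, PSMD, PSME, PSMF or PSMG plus a number, together with ADRM1, POMP, NFE2L1 and PAAF1. This gave 52 genes of 58395 counted identifiers, and 50 of them were among the 16761 genes that passed edgeR's low-count filter. RNA was sequenced from MDA-MB-231, an established line of triple-negative breast cancer cells, 96 h after reverse transfection. One group received a non-targeting control siRNA (siNC), and the others received 1 of 2 individual siRNAs against ZIP7 (siZIP7_1 and siZIP7_2), with 3 libraries per group and no other treatment. ZIP7, encoded by SLC39A7, moves zinc out of the endoplasmic reticulum, and the design compared the control with each of its siRNAs. The knockdown is transient, so only the state at this time was measured.

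The proteasome is a barrel-shaped protease that degrades ubiquitin-tagged proteins in the cytosol and nucleus, including misfolded proteins drawn out of the endoplasmic reticulum. Its 20S core is built of alpha rings, which gate the entrance, and beta rings, which hold the catalytic sites, and a 19S cap made of a base and a lid recognises, unfolds and threads the substrates. Interferon signals can exchange the catalytic subunits for inducible ones to form the immunoproteasome. NFE2L1 is a membrane protein of the endoplasmic reticulum that is released and processed when proteasome activity falls, and it then raises transcription of proteasome genes.

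The libraries held 24153785 to 30454419 reads assigned to genes. Levels are given as CPM, the read count scaled to a common library size after TMM normalization, and levels of different genes are compared only as RPKM, which is CPM divided by the exonic length in kilobases. SLC39A7, the target, was lower with both siRNAs. It stood at 321, 343 and 322 CPM with siNC, 35.4, 32.9 and 38.6 with siZIP7_1, and 20.5, 19.5 and 17.6 with siZIP7_2, a log2 fold change of -3.20 (SE 0.058, edgeR adjusted p = 7.38e-27) with siZIP7_1 and of -4.10 (SE 0.063, edgeR adjusted p = 1.16e-28) with siZIP7_2. KRT8, KRT18, KRT19 and VIM were expressed in every library but moved with the groups. VIM stood at 48.6% of siNC with siZIP7_1 and 52.4% with siZIP7_2, KRT19 at 383% and 135%, and KRT8 at 245% and 90.2%. In the same libraries ESR1 reached at most 0.582 CPM, PGR at most 0.0728 CPM, and ERBB2 lay between 56.7 and 91.5 CPM. The 8 markers of leukocytes, endothelium and fibroblasts summed to 5.37 to 5.94 CPM with siNC, 3.76 to 4.02 with siZIP7_1, and 11.4 to 13.0 with siZIP7_2. CD3E had no count in most libraries, and PECAM1 made up the larger part of the siZIP7_2 sum, at 7.88 to 9.08 CPM, and was at 3.51% of siNC with siZIP7_1. The share of counts on mitochondrial genes was 2.26 to 2.81% with siNC and siZIP7_1 and 3.27 to 3.88% with siZIP7_2, and the part of these differences in the results was not tested. Libraries of a group differed from each other by more than counting error, so none was a copy of another. The labels do not say whether the libraries came from separate cultures, so the p-values measure only the spread between these libraries. In bulk RNA, fewer cells expressing a gene and less RNA per cell cannot be told apart.

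With siZIP7_1, proteasome transcripts were mostly lower than with siNC. Of the 50 tested genes, 36 were lower and 7 were higher at an adjusted p under 0.05, or 72% lower, where 35.9% of all tested genes were called lower and 34.8% were called higher. In either direction 43 were called, 86% of the members beside 70.7% of all genes. The median log2 fold change of the members was -0.24, and that of all tested genes was -0.01. Most changes were small, since 12 members were lower by at least 1.5-fold and 0 were higher by that much, beside 18.8% and 19.6% of all genes. When the test asked for a change of more than 1.2-fold (glmTreat), 17 members were called, 16 of them lower, where 51.2% of all genes were called.

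With siZIP7_2, 31 of the 50 members were lower than siNC and 7 were higher, beside 39.3% and 38.5% of all genes. In total 38 were called, or 76%, which was close to the 77.8% called among all genes. How far lower calls outnumbered higher ones depended on the scaling. Upper-quartile normalization, which moved the median of all genes to 0.10, called 26 lower and 13 higher. The members' median was -0.26 and that of all genes was 0.00. There were 16 members lower by at least 1.5-fold and 0 higher by that much, beside 23.2% and 24.9% of all genes. At more than 1.2-fold 25 were called, 22 of them lower, where 61.4% of all genes were called. Both comparisons share the same siNC libraries, so they are not independent of each other.

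Compared directly, siZIP7_2 and siZIP7_1 gave different levels for 42 of the 50 members, 84% beside 78.7% of all tested genes, with 21 members higher and 21 lower with siZIP7_2. By at least 1.5-fold, 5 were higher and 8 lower, beside 25.2% and 24.7% of all genes. At more than 1.2-fold 29 were called, beside 63% of all genes. The members' median log2 difference was -0.01, and its sign changed with the scaling. The libraries of siZIP7_2 and siZIP7_1 did not overlap in 42 members, a separation seen in 79.7% of all genes. Against siNC, the libraries did not overlap in 43 members with siZIP7_1 and in 37 with siZIP7_2, where 72.1% and 78.7% of all genes were separated in this way. Opposite calls against siNC were made for 8 members (PSMA6, PSMC2, PSMC6, ADRM1, PSMD11, PSMD10, PSMF1 and NFE2L1), or 16%, beside 18.7% of all genes. For all 8 the libraries of the siRNAs also lay on opposite sides of siNC, as they did for 17.3% of all genes, so these shares were no higher among the members.

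**Figure D1:**
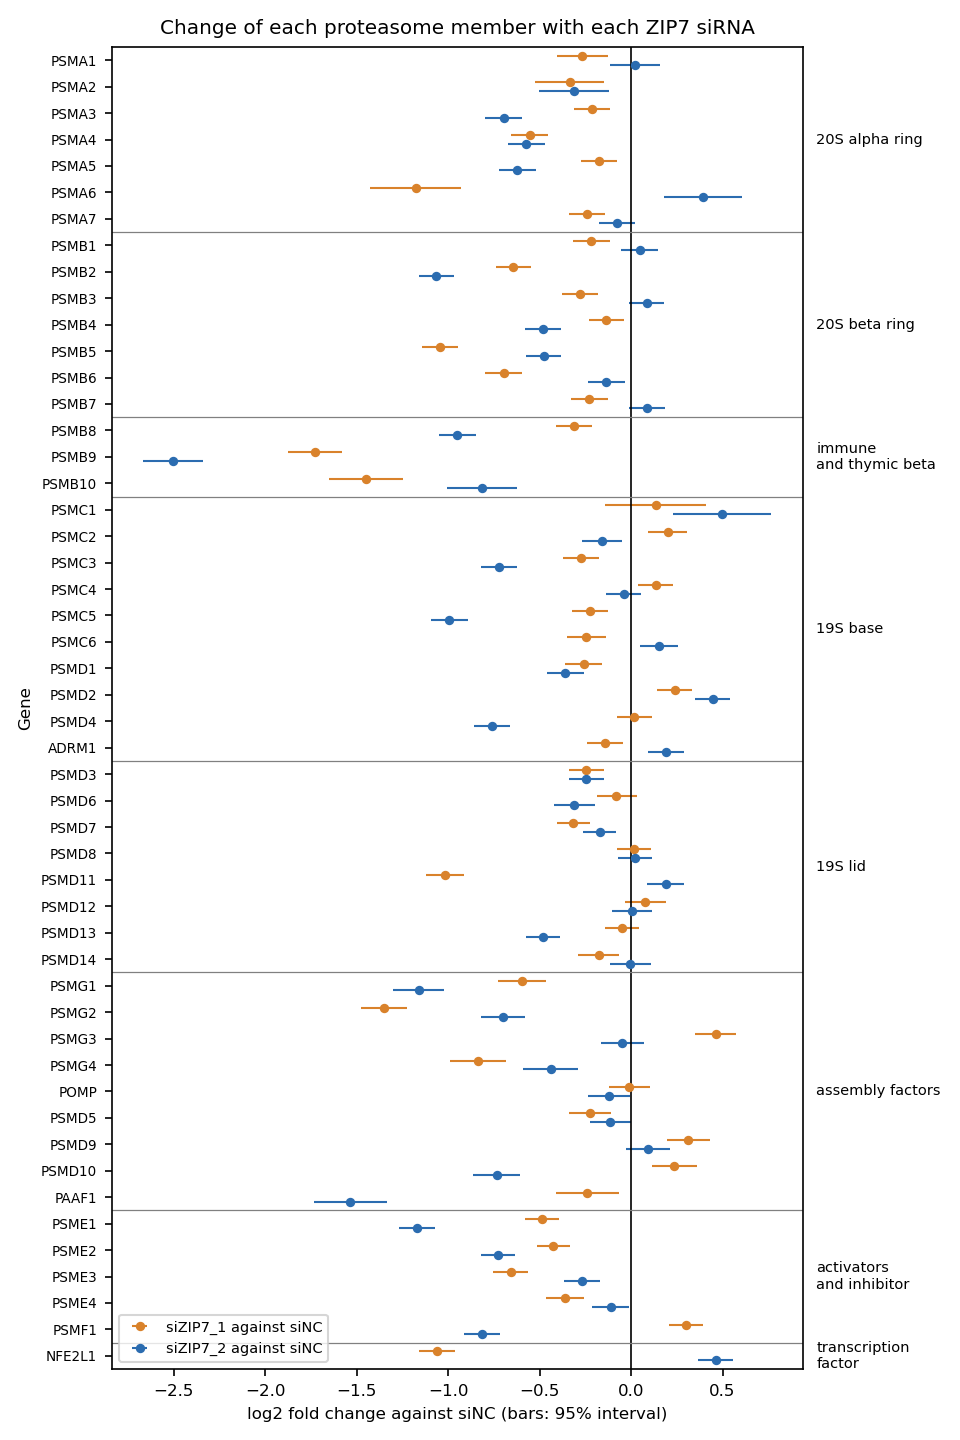
Log2 fold change of each tested member against siNC, with siZIP7_1 in orange and siZIP7_2 in blue, grouped by role. Points are edgeR estimates and bars their 95% intervals. PSMB9 lay farthest to the left with both siRNAs, and PSMA6, PSMD11, PSMF1, PSMD10 and NFE2L1 lay on opposite sides of 0.

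**Figure D2:**
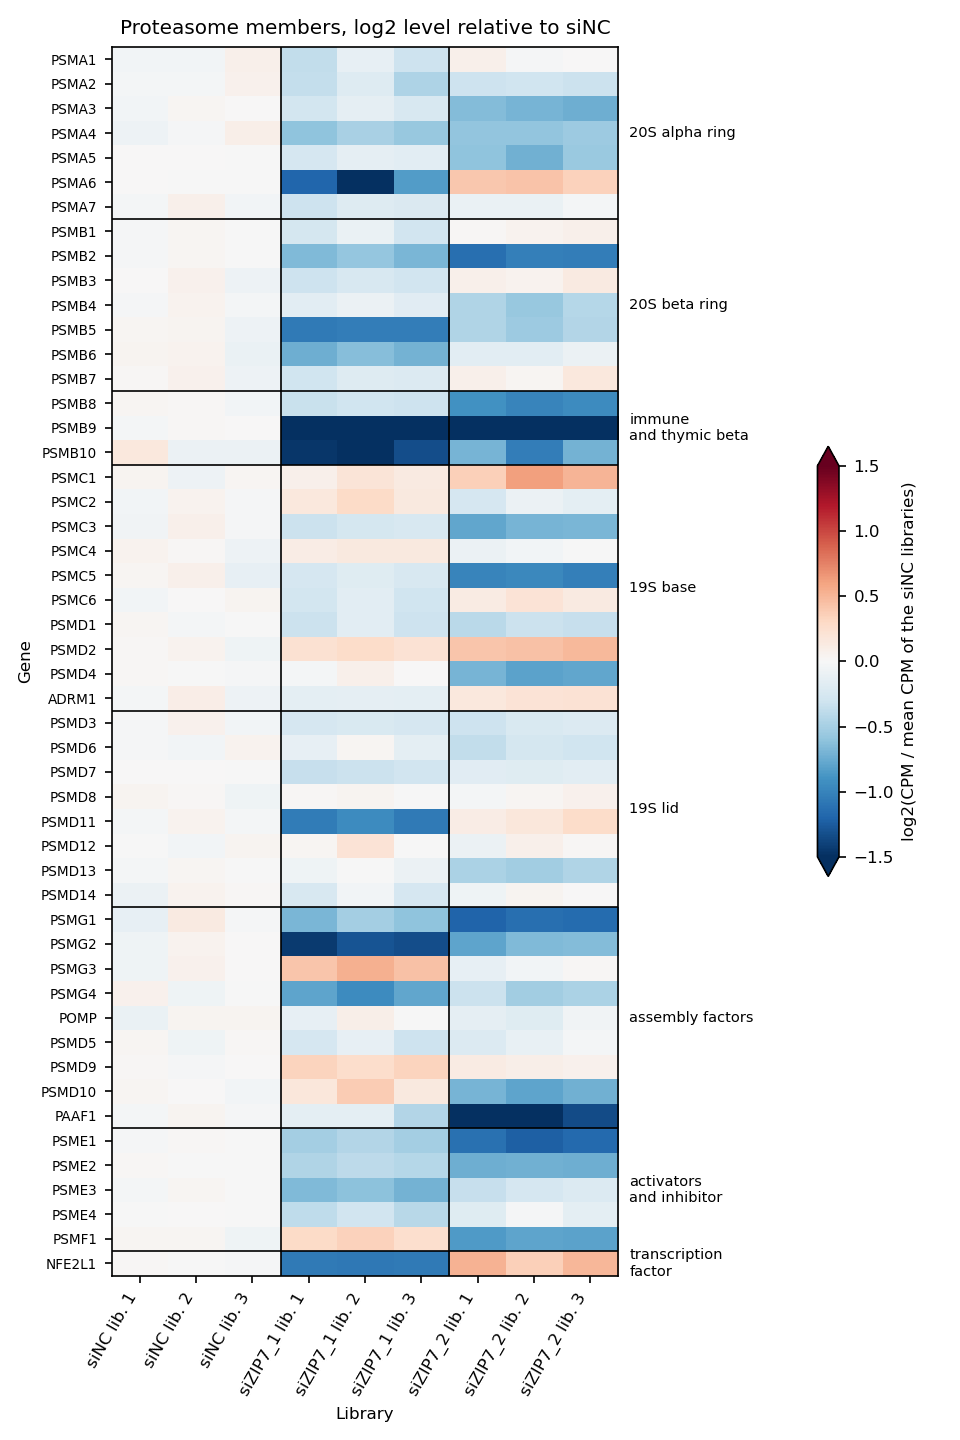
Level of each tested member (rows) in each library (columns) as log2 of CPM over the mean of the siNC libraries, with blue lower and red higher. Colours are capped at 1.5 in either direction. The 3 libraries of a group were alike for most genes, and PSMA6 varied most among the siZIP7_1 libraries of the alpha ring genes.

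The 20S core transcripts fell together with siZIP7_1. The 7 tested genes of the alpha ring and the 7 of the constitutive beta ring were all lower, beside 35.9% of all genes. This count of 14 was the same under every other scaling and filter tried. When a change of more than 1.2-fold was asked for, 2 alpha ring and 3 beta ring genes were still called lower. That test called 51.2% of all genes in either direction. The medians of the rings were -0.27 and -0.28 on the log2 scale. When single libraries were left out PSMB4 was the only one of the 14 genes to lose its call. This happened without siNC library 2, siZIP7_1 library 1 or siZIP7_1 library 3 (adjusted p of 0.0877, 0.0528 and 0.0562 in edgeR). With siZIP7_2, 4 alpha ring genes were lower and 1 was higher, and 4 beta ring genes were lower. Of all genes 39.3% were lower and 38.5% higher with siZIP7_2. Under upper-quartile normalization the beta ring held 3 higher and 3 lower genes, so no common direction of that ring held with siZIP7_2. Summed over its genes, the alpha ring stood at 319 ± 9.72 RPKM (SD, n = 3) with siNC, 267 ± 11.5 with siZIP7_1, and 274 ± 6.32 with siZIP7_2. The sum of the beta ring was 697 ± 25.1, 519 ± 16.4 and 608 ± 18.5 RPKM, or 74.4% of siNC with siZIP7_1 and 87.2% with siZIP7_2.

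In the alpha ring, PSMA3 had the lowest fold change with siZIP7_2. It stood at 126, 133 and 131 CPM with siNC, 107, 119 and 110.2 with siZIP7_1, and 82.9, 80.1 and 78.4 with siZIP7_2. No library of one group overlapped another group, and the order was siNC, siZIP7_1, siZIP7_2. Its log2 fold change was -0.21 (SE 0.048, edgeR adjusted p = 0.000252) with siZIP7_1 and -0.70 (SE 0.049, edgeR adjusted p = 2.06e-13) with siZIP7_2. PSMA5 showed the same order, at 174, 174 and 172 CPM with siNC, 146, 158 and 155 with siZIP7_1, and 114, 105 and 118 with siZIP7_2. Its change was the smallest of the ring with siZIP7_1, -0.18 (SE 0.048, edgeR adjusted p = 0.00186), and it was -0.62 (SE 0.049, edgeR adjusted p = 2.25e-12) with siZIP7_2. PSMA4 was lower by about the same amount with both siRNAs, at 68.1% and 67.2% of siNC. PSMA7, the most abundant member of the ring per length at 209 RPKM in siNC, was at 84.7% with siZIP7_1 and did not pass the test with siZIP7_2, where its interval was -0.17 to 0.02 on the log2 scale. PSMA1 was at 83.2% with siZIP7_1, and its interval with siZIP7_2 was -0.12 to 0.16. PSMA2 was at 79.3% and 80.6% of siNC.

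PSMA6 moved in opposite directions with the siRNAs. It stood at 10.7, 10.5 and 10.6 CPM with siNC, 4.63, 3.40 and 5.93 with siZIP7_1, and 14.1, 14.2 and 13.5 with siZIP7_2. The groups did not overlap, with siZIP7_1 lowest and siZIP7_2 highest, and the siZIP7_1 libraries were widely spread. The log2 fold change was -1.18 (SE 0.12, edgeR adjusted p = 8.07e-10) with siZIP7_1 and 0.40 (SE 0.10, edgeR adjusted p = 0.00122) with siZIP7_2. Much of the PSMA6 transcript sequence also occurs in other genes, as given further on. PSMA8, the testis form of an alpha subunit, had 0 counts in all 9 libraries, where the 3 counts taken as the floor of detection are 0.0985 to 0.124 CPM. These floors cover counting error only.

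Among the beta ring genes without a catalytic site, PSMB2 fell most with siZIP7_2. It stood at 309.5, 318 and 310.5 CPM with siNC, 198, 209 and 194 with siZIP7_1, and 143, 153 and 152 with siZIP7_2. The groups did not overlap, and siZIP7_2 was lowest. Its log2 fold change was -0.64 (SE 0.046, edgeR adjusted p = 3.42e-13) with siZIP7_1 and -1.06 (SE 0.047, edgeR adjusted p = 3.42e-18) with siZIP7_2. PSMB4 stood at 237, 248 and 234 CPM with siNC, 216, 225 and 214 with siZIP7_1, and 176, 162 and 178 with siZIP7_2. It was lower with both siRNAs, with log2 changes of -0.14 (SE 0.047, edgeR adjusted p = 0.0123) and -0.48 (SE 0.048, edgeR adjusted p = 2.86e-10). PSMB1 and PSMB3 were at 86.1% and 82.4% of siNC with siZIP7_1. With siZIP7_2 neither passed the test, and the intervals were -0.05 to 0.15 for PSMB1 and -0.01 to 0.18 for PSMB3. Both passed as higher under upper-quartile normalization and under the filter of 10 counts per library (edgeR adjusted p of 0.00272 and 0.0215 for PSMB1, and of 0.000317 and 0.00255 for PSMB3). PSMB3 also did so with DESeq2, with its size factors and without siNC library 2 (adjusted p of 0.0289, 0.0300 and 0.0445).

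The constitutive catalytic subunits were unequally affected. PSMB5, the subunit with chymotrypsin-like activity and the main target of proteasome inhibitor drugs, stood at 194, 195 and 181 CPM with siNC, 91.4, 92.4 and 92.7 with siZIP7_1, and 139, 130.4 and 141 with siZIP7_2. The groups were separated, with siZIP7_1 at 48.4% and siZIP7_2 at 71.8% of siNC. The log2 fold change was -1.05 (SE 0.048, edgeR adjusted p = 9.24e-18) and -0.48 (SE 0.047, edgeR adjusted p = 2.56e-10). PSMB6, the caspase-like subunit, stood at 164, 165 and 149 CPM with siNC, 95.8, 102 and 97.2 with siZIP7_1, and 143, 143 and 150.1 with siZIP7_2. The siZIP7_1 libraries were below all others, while the siZIP7_2 libraries overlapped those of siNC. The change was -0.70 (SE 0.049, edgeR adjusted p = 2.54e-13) with siZIP7_1. With siZIP7_2 it was -0.14 (SE 0.049, edgeR adjusted p = 0.0131), a call that was lost with DESeq2 and with DESeq2 size factors, upper-quartile normalization or at least 10 counts in every library (log2 -0.10 to -0.03) and in 4 fits that left out 1 library (edgeR adjusted p of 0.0502 to 0.0669). PSMB7, the trypsin-like subunit, stood at 189, 195 and 178 CPM with siNC, 153, 164 and 162 with siZIP7_1, and 197, 191 and 209 with siZIP7_2. It was lower with siZIP7_1, -0.23 (SE 0.050, edgeR adjusted p = 0.000161), and the siZIP7_2 libraries overlapped siNC, 0.09 (SE 0.049, edgeR adjusted p = 0.11). With DESeq2 and under the same 3 settings PSMB7 passed the test as higher with siZIP7_2, at 0.12 to 0.19, as it did without siZIP7_2 library 2.

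The inducible catalytic subunits of the immunoproteasome had the lowest median of the classes with several genes, although single genes of other classes fell more than PSMB8 or PSMB10. All 3 expressed members of this class, PSMB8, PSMB9 and PSMB10, were lower with each siRNA, under every alternative that tested for any change. Lower calls were made for 35.9% of all genes with siZIP7_1 and for 39.3% with siZIP7_2. The class median was -1.45 with siZIP7_1 and -0.95 with siZIP7_2. Their summed level was 48.1 ± 1.51 RPKM (SD, n = 3) with siNC, 29.1 ± 0.355 with siZIP7_1 and 22.1 ± 1.10 with siZIP7_2. PSMB11, the thymic subunit, never had more than 3 counts in a library and was not tested.

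PSMB9 (LMP2, GENCODE chr6:32844136-32859585 of GRCh38, plus strand), which takes the place of PSMB6, stood at 29.4, 30.4 and 30.1 CPM with siNC, 9.07, 8.73 and 9.29 with siZIP7_1, and 4.97, 5.49 and 5.34 with siZIP7_2. The groups were far apart, and siZIP7_2 was lowest. Its log2 fold change was -1.73 (SE 0.073, edgeR adjusted p = 1.28e-18) with siZIP7_1 and -2.50 (SE 0.080, edgeR adjusted p = 2.06e-21) with siZIP7_2, the lowest of all members in both comparisons. PSMB10 (MECL-1, chr16:67934502-67937087, minus strand), which takes the place of PSMB7, stood at 21.9, 18.4 and 18.4 CPM with siNC, 7.14, 6.56 and 7.78 with siZIP7_1, and 12.03, 9.51 and 12 with siZIP7_2. Here siZIP7_1 was the lowest group, and the log2 fold change was -1.45 (SE 0.098, edgeR adjusted p = 9.68e-14) and -0.82 (SE 0.093, edgeR adjusted p = 5.52e-09). PSMB8 (LMP7, chr6:32840717-32844703, minus strand), which takes the place of PSMB5, stood at 84.6, 84.2 and 80.6 CPM with siNC, 66.1, 67.6 and 66.8 with siZIP7_1, and 44.3, 41.8 and 43.1 with siZIP7_2. It had the smallest change of the class with siZIP7_1, -0.31 (SE 0.048, edgeR adjusted p = 1.29e-06), and was -0.95 (SE 0.050, edgeR adjusted p = 2.21e-16) with siZIP7_2. PSMB8 and PSMB9 lie next to each other on the chromosome arm that also carries SLC39A7 (chr6:33200445-33204439).

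Because a ratio within a library does not depend on the scaling between libraries, the inducible and constitutive partner of each pair were also compared per length. The ratio of PSMB8 to PSMB5 was 0.257 ± 0.00422 (SD, n = 3) with siNC, 0.427 ± 0.00325 with siZIP7_1 and 0.186 ± 0.00454 with siZIP7_2. It was thus 166% of siNC with siZIP7_1, where PSMB5 fell more than PSMB8, and 72.1% with siZIP7_2, where PSMB8 fell more. The ratio of PSMB9 to PSMB6 was 0.0887 ± 0.00564, 0.0433 ± 0.00268 and 0.0171 ± 0.000937, or 48.8% and 19.3% of siNC. The ratio of PSMB10 to PSMB7 was 0.101 ± 0.0105, 0.0433 ± 0.00418 and 0.0541 ± 0.00545, or 42.9% and 53.6% of siNC. In each pair the libraries of either siZIP7 group did not overlap those of siNC. The ratios themselves were not tested.

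**Figure D3:**
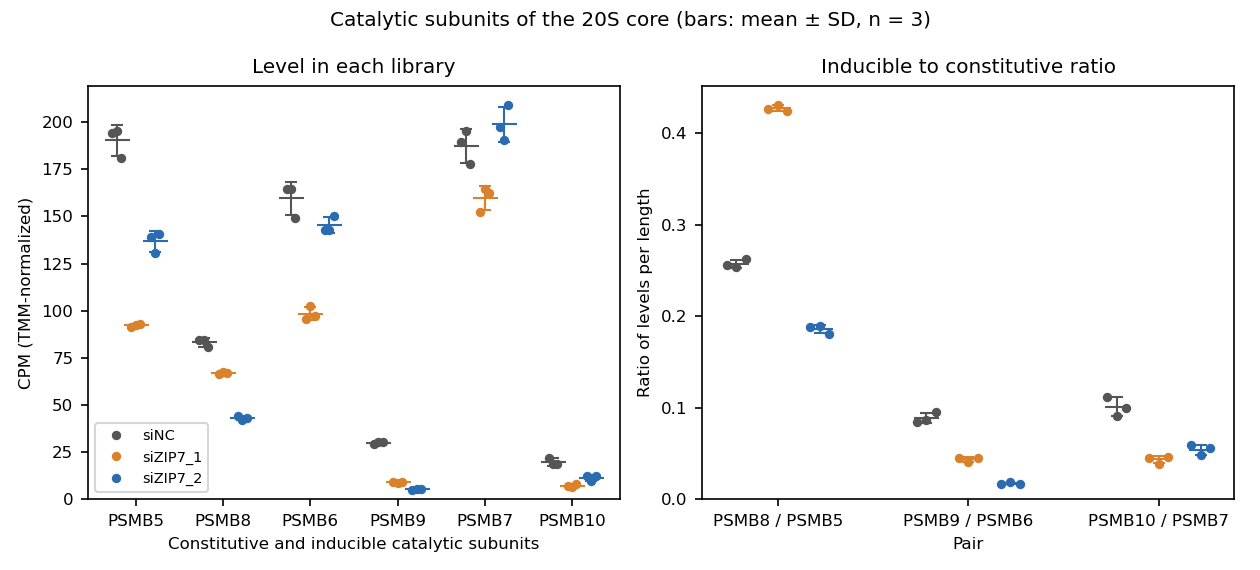
Left, level in CPM of each constitutive catalytic subunit and, beside it, the inducible subunit that replaces it, by group. Right, the ratio of inducible to constitutive partner per exonic length. Points are libraries and bars the mean ± SD (n = 3). The PSMB8 to PSMB5 ratio was above siNC with siZIP7_1 and below it with siZIP7_2, and the other ratios were below siNC with both.

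PSME1 and PSME2, which form the interferon-inducible PA28 activator that opens the core for peptide processing, fell with both siRNAs. PSME1 (chr14:24136158-24138967, plus strand) stood at 172, 176 and 173 CPM with siNC, 123, 128 and 122 with siZIP7_1, and 80.2, 74.5 and 77.4 with siZIP7_2. PSME2 (chr14:24143362-24147570, minus strand) stood at 131, 129 and 129 CPM with siNC, 94.8, 98.7 and 96.1 with siZIP7_1, and 78.2, 78.4 and 78.3 with siZIP7_2. For both genes the groups did not overlap and siZIP7_2 was lowest. The log2 fold change of PSME1 was -0.49 (SE 0.045, edgeR adjusted p = 1.07e-10) and -1.17 (SE 0.047, edgeR adjusted p = 3.81e-19). That of PSME2 was -0.43 (SE 0.045, edgeR adjusted p = 1.21e-09) and -0.73 (SE 0.045, edgeR adjusted p = 1.07e-14).

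Since these inducible members were lower together, their promoters are shown, from RefSeq windows of 300 bases on GRCh38.p14 that run from 250 bases before to 50 after an annotated start. Such windows were given for 46 of the 52 members. PSMA7, PSMB1, PSMB6, PSMB7, PSMD4 and PSMG3 had none. The windows were searched on both strands for 2 motifs. The first, GAAA followed after 2 bases of any kind by another GAAA, is the core of the interferon-stimulated response element (ISRE). The second, TGAC followed after 3 bases of any kind by GC, is the core of the antioxidant response element (ARE) that NFE2L1 and NFE2L2 bind with small MAF proteins. Matches are in capitals below, 5′ to 3′ on the strand of the gene, and a match on the other strand reads as its reverse complement. The windows lie at chr6:32843998-32844297 (PSMB8, minus strand, the one of its 2 windows that holds a match), chr6:32853942-32854241 (PSMB9, plus strand), chr16:67936801-67937100 (PSMB10, minus strand), chr14:24135944-24136243 (PSME1, plus strand) and chr14:24146561-24146860 (PSME2, minus strand).
PSMB8: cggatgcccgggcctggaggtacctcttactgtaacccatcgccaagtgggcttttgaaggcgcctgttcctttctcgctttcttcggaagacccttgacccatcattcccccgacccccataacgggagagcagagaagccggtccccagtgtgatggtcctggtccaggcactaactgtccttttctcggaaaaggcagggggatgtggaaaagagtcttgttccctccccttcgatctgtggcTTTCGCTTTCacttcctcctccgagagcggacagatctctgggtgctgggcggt
PSMB9: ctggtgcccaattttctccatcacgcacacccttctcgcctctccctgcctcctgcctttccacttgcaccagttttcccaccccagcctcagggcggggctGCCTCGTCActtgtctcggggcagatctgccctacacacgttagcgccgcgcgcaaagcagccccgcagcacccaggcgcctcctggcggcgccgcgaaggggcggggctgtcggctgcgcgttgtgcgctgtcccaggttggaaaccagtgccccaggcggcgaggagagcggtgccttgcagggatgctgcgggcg
PSMB10: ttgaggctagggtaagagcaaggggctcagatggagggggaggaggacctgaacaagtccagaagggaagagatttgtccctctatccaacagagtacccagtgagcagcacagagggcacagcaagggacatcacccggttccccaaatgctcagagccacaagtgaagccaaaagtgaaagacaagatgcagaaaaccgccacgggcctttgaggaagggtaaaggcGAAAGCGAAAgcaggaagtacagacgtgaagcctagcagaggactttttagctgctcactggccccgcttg
PSME1: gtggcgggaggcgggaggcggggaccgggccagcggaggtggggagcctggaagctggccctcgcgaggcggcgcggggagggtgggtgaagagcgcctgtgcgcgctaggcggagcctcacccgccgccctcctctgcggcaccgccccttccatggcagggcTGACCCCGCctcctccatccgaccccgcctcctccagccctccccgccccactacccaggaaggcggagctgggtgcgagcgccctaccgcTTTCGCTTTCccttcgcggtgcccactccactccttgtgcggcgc
PSME2: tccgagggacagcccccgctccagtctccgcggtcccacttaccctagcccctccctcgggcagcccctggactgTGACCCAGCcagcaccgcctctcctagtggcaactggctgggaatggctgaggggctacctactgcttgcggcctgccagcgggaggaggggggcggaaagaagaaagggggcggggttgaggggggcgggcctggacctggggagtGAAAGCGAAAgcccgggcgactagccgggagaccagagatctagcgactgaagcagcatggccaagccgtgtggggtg
Distances are to the first printed base of a match. The ISRE core began 4 bases before the start of PSMB8 and ran across that start. It began 21 before that of PSMB10, 28 before that of PSME2 and 5 after that of PSME1, and it was not in the PSMB9 window. The ARE core began 148 bases before the start of PSMB9, 86 before that of PSME1 and 175 before that of PSME2. Over all genes with a window, 4.38% held the ISRE core and 16.1% held the ARE core, and among the members these shares were 15.2% (7 of 46) and 34.8% (16 of 46). The other members with the ISRE core were PSMA4, PSMB4 and PSMG4. In the windows shown no match of one motif overlapped a match of the other. A match is a description of letters, not a bound site. The motifs were chosen with the fold changes known.

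PSMB9 is transcribed away from TAP1, the peptide transporter subunit, and their RefSeq starts are 488 bases apart. TAP1 stood at 104, 109 and 102 CPM with siNC, 102, 97.8 and 94 with siZIP7_1, and 72.97, 67.6 and 72.7 with siZIP7_2. The siZIP7_1 libraries lay just below those of siNC and did not pass the test, -0.10 (SE 0.049, edgeR adjusted p = 0.0676), while the siZIP7_2 libraries were well below both, -0.56 (SE 0.050, edgeR adjusted p = 3.11e-11). Of 9 genes listed for antigen processing and interferon factors, 7 were lower and 1 higher with siZIP7_1, beside 35.9% and 34.8% of all genes. With siZIP7_2, 7 were lower and 2 higher, beside 39.3% and 38.5% of all genes. NLRC5, a transactivator of antigen presentation genes, changed by -1.65 (siZIP7_1) and -0.67 (siZIP7_2) on the log2 scale. IRF1, a factor that binds interferon response elements, was at -1.16 and -0.11. TAPBP, which loads peptides onto class I molecules, was at -0.54 and -1.68, and TAP2 at -0.94 and -0.84. ERAP1, a peptide-trimming protease, was at -1.18 and -0.72, and B2M, the class I light chain, at -0.83 and -0.34. These values for NLRC5 to B2M passed the test, that of IRF1 with siZIP7_2 only just (edgeR adjusted p = 0.0488).

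The other activators were lower as well with both siRNAs, PSME4 only narrowly with siZIP7_2. PSME3, the nuclear PA28 gamma activator, stood at 284, 295 and 286 CPM with siNC, 183, 189 and 177 with siZIP7_1, and 227, 242 and 249 with siZIP7_2. The groups were separated and siZIP7_1 was lowest, with changes of -0.66 (SE 0.047, edgeR adjusted p = 3.42e-13) and -0.27 (SE 0.047, edgeR adjusted p = 7.93e-06). PSME4, the PA200 activator, stood at 225, 227 and 225 CPM with siNC, 173, 185 and 169 with siZIP7_1, and 199, 224 and 204 with siZIP7_2. It fell with siZIP7_1, -0.36 (SE 0.050, edgeR adjusted p = 1.94e-07). With siZIP7_2 its change was -0.11 (SE 0.049, edgeR adjusted p = 0.0431), close to the threshold, and the call was lost with DESeq2, with a fit to the pair of groups, under those 3 settings and in 5 of the fits that left out 1 library (log2 -0.12 to -0.07). The log2 value was -0.08 with DESeq2 and with its size factors, -0.04 with at least 10 counts and -0.004 under upper-quartile normalization.

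PSMF1 (PI31), known as an inhibitor of the core, moved in opposite directions. It stood at 161, 163 and 152 CPM with siNC, 195, 202 and 189 with siZIP7_1, and 87.99, 91.7 and 91.1 with siZIP7_2. The siZIP7_1 libraries were all above siNC and the siZIP7_2 libraries all below it. The log2 fold change was 0.30 (SE 0.046, edgeR adjusted p = 1.31e-06) with siZIP7_1 and -0.81 (SE 0.047, edgeR adjusted p = 2.16e-15) with siZIP7_2, and the difference between the siRNAs was -1.11 (SE 0.047, edgeR adjusted p = 9.09e-19). Summed over its genes, the class of activators and inhibitor stood at 76.9% of siNC with siZIP7_1 and 61.7% with siZIP7_2.

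The 19S base, which holds the ATPases that unfold substrates, had no common direction. Of its 10 genes 5 were lower and 3 higher with siZIP7_1, beside 35.9% and 34.8% of all genes. With siZIP7_2, 5 were lower and 4 higher, beside 39.3% and 38.5% of all genes. Its summed level was 711 ± 27.7 RPKM (SD, n = 3) with siNC, 703 ± 13.9 with siZIP7_1 and 683 ± 14.4 with siZIP7_2, and the libraries of the 3 groups overlapped.

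Among the ATPases, PSMC3 stood at 321, 351 and 329 CPM with siNC, 267, 277 and 283 with siZIP7_1, and 195, 205 and 207 with siZIP7_2. It was the lowest of the base with siZIP7_1, -0.27 (SE 0.047, edgeR adjusted p = 7.29e-06), and lower again with siZIP7_2, -0.72 (SE 0.048, edgeR adjusted p = 3.95e-14). PSMC5 stood at 267, 276 and 241 CPM with siNC, 219, 229.6 and 222 with siZIP7_1, and 132, 133 and 129 with siZIP7_2. The groups were separated for both genes with siZIP7_2 lowest, and PSMC5 had the largest fall of the base with siZIP7_2, -0.99 (SE 0.050, edgeR adjusted p = 8.27e-17), after -0.22 (SE 0.049, edgeR adjusted p = 0.00018) with siZIP7_1. PSMC2 stood at 122, 129.9 and 123 CPM with siNC, 139.6, 153 and 138 with siZIP7_1, and 105, 118 and 113 with siZIP7_2. It was higher with siZIP7_1, 0.20 (SE 0.052, edgeR adjusted p = 0.00107), and lower with siZIP7_2, -0.16 (SE 0.052, edgeR adjusted p = 0.00729), where upper-quartile normalization gave -0.05 and an edgeR adjusted p of 0.317. That call was also lost with at least 10 counts in every library and without siNC library 2 or siZIP7_2 library 1 (edgeR adjusted p of 0.134, 0.0516 and 0.0910). PSMC6 went the other way, at 70.1, 72.7 and 74.5 CPM with siNC, 60.02, 64.7 and 58.8 with siZIP7_1, and 78.99, 83.4 and 79.4 with siZIP7_2. It was -0.24 (SE 0.051, edgeR adjusted p = 0.000117) with siZIP7_1 and 0.15 (SE 0.051, edgeR adjusted p = 0.0073) with siZIP7_2, and the second call was lost without siNC library 1 or with no low-count filter (edgeR adjusted p of 0.0612 and 0.138). PSMC4 was at 110% of siNC with siZIP7_1, a call lost without siNC library 3 (edgeR adjusted p = 0.0684). With siZIP7_2 its interval was -0.14 to 0.06 on the log2 scale.

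PSMC1 had the highest fold change of the base with siZIP7_2 but very few counted reads. It stood at 3.23, 2.96 and 3.20 CPM with siNC, 3.31, 3.57 and 3.45 with siZIP7_1, and 3.998, 4.80 and 4.46 with siZIP7_2. The siZIP7_2 libraries were above the rest, 0.50 (SE 0.13, edgeR adjusted p = 0.00118). The siZIP7_1 libraries lay just above those of siNC without passing the test, 0.14 (SE 0.14, edgeR adjusted p = 0.381). Nearly all of its transcript sequence also occurs in other genes, as given further on.

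PSMD2, a scaffold of the base that docks ubiquitin-binding proteins, was the most abundant 19S transcript per length at 184 RPKM in siNC, and it rose with both siRNAs. It stood at 1012, 1036 and 961 CPM with siNC, 1175, 1213 and 1162 with siZIP7_1, and 1337, 1361 and 1399 with siZIP7_2. The groups were separated in the order siNC, siZIP7_1, siZIP7_2, with changes of 0.24 (SE 0.047, edgeR adjusted p = 5.1e-05) and 0.45 (SE 0.047, edgeR adjusted p = 1.1e-09). PSMD1, the other large scaffold, was at 83.5% and 78% of siNC. The ubiquitin receptor PSMD4 did not pass the test with siZIP7_1 (interval -0.08 to 0.11) and was at 59.1% of siNC with siZIP7_2. ADRM1, the receptor that also binds the deubiquitinase UCHL5, stood at 286, 315 and 277 CPM with siNC, 263, 267 and 264 with siZIP7_1, and 326, 336 and 339 with siZIP7_2. The siZIP7_1 libraries were below siNC, -0.14 (SE 0.048, edgeR adjusted p = 0.00898), and the siZIP7_2 libraries above it, 0.19 (SE 0.048, edgeR adjusted p = 0.000725). Without siNC library 2 the first of these calls was lost (log2 -0.08, edgeR adjusted p = 0.14).

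The 19S lid had few large changes. Of its 8 genes 4 were lower with siZIP7_1 and none was higher, beside 35.9% and 34.8% of all genes. With siZIP7_2 4 were lower and 1 was higher (3 lower and 3 higher under upper-quartile normalization), beside 39.3% and 38.5% of all genes. Only PSMD11 changed by at least 1.5-fold against siNC. It is a scaffold subunit whose abundance is known to limit assembly of the full particle in some cells. PSMD11 (ENSG00000108671) stood at 261, 277 and 262 CPM with siNC, 129, 138 and 128 with siZIP7_1, and 289, 301 and 323 with siZIP7_2. The siZIP7_1 libraries lay far below all others and the siZIP7_2 libraries above those of siNC. The log2 fold change was -1.02 (SE 0.050, edgeR adjusted p = 6.31e-17) with siZIP7_1 and 0.19 (SE 0.049, edgeR adjusted p = 0.00101) with siZIP7_2, and the siRNAs differed by 1.21 (SE 0.050, edgeR adjusted p = 6.54e-19).

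PSMD13 had the lowest value of the lid with siZIP7_2. It stood at 156, 163 and 159 CPM with siNC, 152, 159 and 149.9 with siZIP7_1, and 114, 111 and 117 with siZIP7_2. The siZIP7_1 libraries overlapped siNC, -0.05 (SE 0.045, edgeR adjusted p = 0.313), and the siZIP7_2 libraries were below both, -0.48 (SE 0.046, edgeR adjusted p = 1.27e-10). PSMD12 stood at 172, 169 and 178 CPM with siNC, 176, 199.9 and 172 with siZIP7_1, and 163, 183 and 175 with siZIP7_2, with all groups overlapping. Its changes of 0.08 (SE 0.054, edgeR adjusted p = 0.195) and 0.01 (SE 0.054, edgeR adjusted p = 0.916) did not pass the test. PSMD3 was at 84.4% of siNC with siZIP7_1 and 84.4% with siZIP7_2. PSMD7 was at 80.4% and 88.9%. PSMD6 passed the test with siZIP7_2 only, at 80.6%, and was -0.08 on the log2 scale with siZIP7_1 (edgeR adjusted p = 0.184). PSMD14, the deubiquitinase that strips ubiquitin from the substrate, was at 88.4% with siZIP7_1, although its libraries overlapped those of siNC, and the call was lost without siNC library 2 (edgeR adjusted p = 0.0548). With siZIP7_2 its interval was -0.12 to 0.11. PSMD8 passed neither test, and its intervals were -0.08 to 0.11 and -0.07 to 0.12.

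The assembly factors, which help build the particle and are not part of the finished one, ranged from -1.35 to 0.46 on the log2 scale with siZIP7_1 and from -1.54 to 0.09 with siZIP7_2. Of the 9 genes 5 were lower and 3 higher with siZIP7_1, beside 35.9% and 34.8% of all genes. With siZIP7_2 6 were lower and none higher (5 lower and 1 higher under upper-quartile normalization), beside 39.3% and 38.5% of all genes. PSMG2, which pairs with PSMG1 to build the alpha ring, stood at 51.3, 55.5 and 53.6 CPM with siNC, 19.7, 21.8 and 21.3 with siZIP7_1, and 31.01, 33.7 and 33.99 with siZIP7_2. The groups were separated and siZIP7_1 was lowest, -1.35 (SE 0.061, edgeR adjusted p = 6.93e-18) and -0.70 (SE 0.059, edgeR adjusted p = 8.61e-12). PSMG1 was lower in the other order, at 66.2% of siNC with siZIP7_1 and 44.7% with siZIP7_2. PSMG3, of the second alpha ring chaperone pair, stood at 42.6, 46.7 and 44.8 CPM with siNC, 59.8, 64.5 and 60.4 with siZIP7_1, and 41.1, 43.4 and 45.1 with siZIP7_2. It was the highest assembly factor with siZIP7_1, 0.46 (SE 0.055, edgeR adjusted p = 1.22e-08), and overlapped siNC with siZIP7_2, -0.05 (SE 0.056, edgeR adjusted p = 0.452). Its partner PSMG4 was at 56% and 73.8% of siNC.

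POMP, which guides beta subunits onto the alpha ring, stood at 96.9, 107 and 107 CPM with siNC, 95.5, 110.0 and 103 with siZIP7_1, and 94.4, 91.3 and 100.1 with siZIP7_2. All groups overlapped. Its change was -0.01 (SE 0.055, edgeR adjusted p = 0.868) with siZIP7_1 and -0.12 (SE 0.055, edgeR adjusted p = 0.0468) with siZIP7_2, a call that was lost with DESeq2, under the same 3 settings as for PSMB6 and in 4 of the fits that left out 1 library (log2 -0.11 to -0.08). It was -0.09 with DESeq2 and with its size factors, -0.05 with at least 10 counts and -0.01 under upper-quartile normalization.

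The remaining factors assemble the 19S base. PAAF1, which binds ATPases of the base, stood at 18.9, 19.8 and 19.05 CPM with siNC, 17.4, 17.3 and 14.2 with siZIP7_1, and 5.74, 6.55 and 7.61 with siZIP7_2. The siZIP7_2 libraries were far below the rest, -1.54 (SE 0.097, edgeR adjusted p = 1.43e-14). With siZIP7_1 it was -0.24 (SE 0.085, edgeR adjusted p = 0.0138), a call lost without siNC library 2 or siZIP7_1 library 3 (edgeR adjusted p of 0.0613 and 0.149). PSMD10 (gankyrin), which also has a known role in tumour growth, stood at 45.4, 44.8 and 43.2 CPM with siNC, 50.1, 57.8 and 49.2 with siZIP7_1, and 27.3, 25.8 and 27.1 with siZIP7_2. It was above siNC with siZIP7_1, 0.24 (SE 0.059, edgeR adjusted p = 0.000844), and below it with siZIP7_2, -0.73 (SE 0.063, edgeR adjusted p = 1.51e-11), and no groups overlapped. PSMD9 stood at 26.98, 26.3 and 26.8 CPM with siNC, 33.8, 32.2 and 33.6 with siZIP7_1, and 29.1, 28.3 and 27.99 with siZIP7_2. It rose with siZIP7_1, 0.31 (SE 0.058, edgeR adjusted p = 2.31e-05). The siZIP7_2 libraries were also above siNC but did not pass the test, 0.09 (SE 0.059, edgeR adjusted p = 0.158). PSMD5 was at 85.7% of siNC with siZIP7_1, and its interval with siZIP7_2 was -0.23 to 0.00.

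NFE2L1 (ENSG00000082641, chr17:48048329-48061487, plus strand) differed between the siRNAs by more than any other member but PSMA6. It stood at 581, 571 and 564 CPM with siNC, 275, 272 and 275 with siZIP7_1, and 821, 736 and 808 with siZIP7_2. The siZIP7_1 libraries were below all others and the siZIP7_2 libraries above all others. Its log2 fold change was -1.06 (SE 0.048, edgeR adjusted p = 7.74e-18) with siZIP7_1 and 0.46 (SE 0.047, edgeR adjusted p = 5.84e-10) with siZIP7_2, and the difference between the siRNAs was 1.52 (SE 0.048, edgeR adjusted p = 9.84e-22). These are transcript levels, and neither the processing nor the activity of the protein was measured.

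Of 13 genes listed for NFE2L1 processing and partners, 6 were higher and 6 lower with siZIP7_1, beside 34.8% and 35.9% of all genes. With siZIP7_2, 11 were higher and 1 lower, beside 38.5% and 39.3% of all genes. NPLOC4 and UFD1, partners of the extraction ATPase VCP, stood lower with siZIP7_1 and higher with siZIP7_2, at -1.14 and 0.15 for NPLOC4 and -0.54 and 0.61 for UFD1. VCP itself was at -0.35 and 0.23. SEL1L, which holds the ubiquitin ligase SYVN1 in place, was at -0.69 and 0.38, while SYVN1, which turns over NFE2L1, was at 0.83 and 0.83. The small MAF genes, whose proteins pair with NFE2L1 on DNA, were at 0.64 and 0.95 for MAFG, 0.61 and 0.81 for MAFK, and -0.12 and 1.32 for MAFF. These values passed the test. DDI2, the protease that cleaves NFE2L1, was 0.54 (SE 0.055, edgeR adjusted p = 8.53e-10) and 0.21 (SE 0.056, edgeR adjusted p = 0.00106). NGLY1, which removes its glycans, was 0.24 (SE 0.060, edgeR adjusted p = 0.000749) with siZIP7_1 and had an interval of -0.12 to 0.13 with siZIP7_2.

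**Figure D4:**
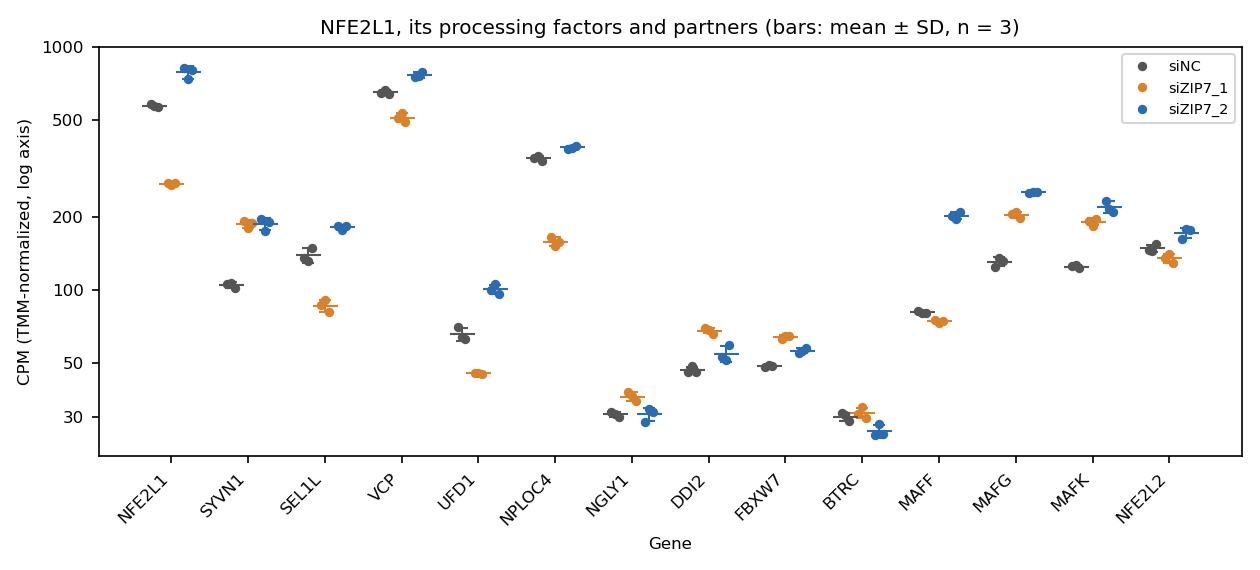
Level of NFE2L1 and of the genes listed for its processing and partners, in CPM on a log axis, by group. Points are libraries and bars the mean ± SD (n = 3). NFE2L1, SEL1L, VCP, UFD1, NPLOC4, MAFF and NFE2L2 were lowest with siZIP7_1 and highest with siZIP7_2.

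Genes for ubiquitin handling at the proteasome did not move in one direction. Of 14 listed, 7 were lower and 3 higher with siZIP7_1, beside 35.9% and 34.8% of all genes. With siZIP7_2, 6 were lower and 4 higher, beside 39.3% and 38.5% of all genes. UCHL5, the deubiquitinase on ADRM1, was at -0.20 with siZIP7_1 and -1.13 with siZIP7_2, and ECPAS, a proteasome adaptor, at -0.83 and -0.52. ZFAND5 and ZFAND2A, which bind the proteasome under stress, were higher, at 0.21 and 0.68 for ZFAND5 and 0.31 and 0.76 for ZFAND2A. Of 6 genes for ubiquitin and its activation, beside the same shares of all genes, 2 were higher and 1 lower with siZIP7_1. With siZIP7_2, 2 of them were higher and 4 lower. RPS27A, which encodes ubiquitin fused to a ribosomal protein, was at -0.70 and -1.14. The values of UCHL5, ECPAS, ZFAND5, ZFAND2A and RPS27A passed the test.

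Some members share sequence with pseudogenes or overlap other genes. How reads with several alignments were handled is not given in the sources used here, and the summary line for such reads was 0 in every library. Of the 52 members 20 had no transcript window of 50 bases in another gene, and 9 had more than 20% of their windows there. The largest shares were 95.4% for PSMC1 (NRDE2 and pseudogenes), 56.6% for PSMA6, 49.4% for PSMA2, 38.3% for PSMD7 and 36.7% for PSMB10. PSMC1, PSMA6 and PSMA2 had 0.509, 1.63 and 1.89 RPKM in siNC, while PSMA7 of the same particle had 209. Their levels and fold changes are therefore uncertain. Other genes overlapped more than 10% of the exonic length in 13 members, among them PSMB10 (34.8%) and PSMB8 (20.6%). The strand setting of the counting is not given in the sources used here, so reads of PSMB8 and of its antisense gene PSMB8-AS1, which stood at 5.66, 6.10 and 7.44 CPM with siNC, 2.44, 2.82 and 2.54 with siZIP7_1, and 1.55, 1.18 and 1.04 with siZIP7_2, cannot be told apart where they overlap. Among the 41 tested members with at most 20% of windows elsewhere, a limit chosen after the data were seen, 29 were lower and 6 higher with siZIP7_1. With siZIP7_2, 27 of these 41 were lower and 4 higher. The shares of all tested genes were 35.9% lower and 34.8% higher with siZIP7_1, and 39.3% and 38.5% with siZIP7_2.

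**Figure D5:**
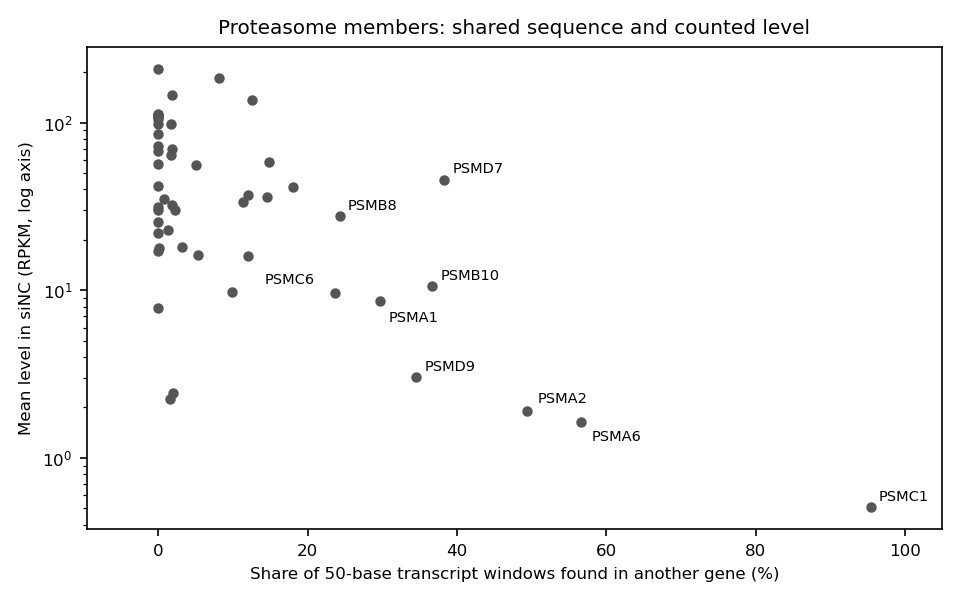
Mean level of each tested member in siNC, in RPKM on a log axis, against the share of its 50-base transcript windows that also occur in another gene. Each point is 1 gene, and genes above 20% are named. PSMC1, PSMA6 and PSMA2, with the largest shares, lay at or below 1.89 RPKM.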

How the data were processed

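RNA of MDA-MB-231 cells was taken 96 h after transfection and sequenced, with 3 libraries for each siRNA. The counts the authors deposited are raw numbers of single-end reads per Ensembl gene, with no normalization. The submitters' processing notes name Trim Galore 0.4.1, FastQC 0.11.2, STAR, HTSeq 0.6.1 and DESeq2 1.16.1. The genome build, the annotation release, the strand setting and the handling of reads with several alignments are not given in the sources used here. Reads without a gene (7.43 to 11.5% of gene counts and summary lines together) and other summary lines were left out. Of 58395 identifiers, 58275 matched GENCODE 29 on GRCh38.

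The counts were fitted in R 4.3.3 with edgeR 4.0.16 (TMM, low-count filter, quasi-likelihood test, 3 groups in one fit, 6 residual degrees of freedom), with Benjamini-Hochberg adjustment over 16761 genes and a threshold of 0.05. Depth was 24153785 to 30454419 counts per library, and the biological coefficient of variation was 4.50%. The SE was derived from the log2 fold change and the F statistic. The steps were tested on simulated data. Groups came from the treatment label. The sample titles number the 2 siRNAs differently, with 1 title number for each treatment label. The members, the gene lists and the promoter motifs were chosen with earlier results of these data known. Library values are given for the extremes of each class, the catalytic subunits, the activators and inhibitor, NFE2L1, POMP and members called in opposite directions (33 in all), and for genes of the other lists past 1.5-fold. A few further genes were named after their values were seen, and some genes of those lists are not reported here. The alternatives were upper-quartile normalization, DESeq2 1.42.0, edgeR with DESeq2 size factors, a fit to each pair of groups, a stricter filter (10 or more counts in each library), an unfiltered fit, a replicate block, a 1.2-fold null hypothesis, each library left out in turn, and centring on the median of all genes.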

Additional observations from a re-analysis of the deposited data

Results flagged for a closer look

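For 8 members the changes against siNC passed the test in opposite directions with the siRNAs, 16% of those tested beside 18.7% of all genes, and the direct comparison of siZIP7_2 with siZIP7_1 passed as well in edgeR. The log2 difference was 1.57 for PSMA6, 1.52 for NFE2L1, 1.21 for PSMD11, 0.40 for PSMC6 and 0.34 for ADRM1, all higher with siZIP7_2. It was -1.11 for PSMF1, -0.97 for PSMD10 and -0.36 for PSMC2, all lower with siZIP7_2. In each of the 8 genes all 3 siZIP7_1 libraries lay on one side of siNC and all 3 siZIP7_2 libraries on the other, a pattern seen in 17.3% of all genes. The knockdown of SLC39A7 also differed between the siRNAs, at 32.9 to 38.6 CPM with siZIP7_1 and 17.6 to 20.5 CPM with siZIP7_2, and its part in these differences was not tested. Effects of each siRNA on other transcripts cannot be told apart from those of the knockdown, with 1 siRNA in each group.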

How the results depend on the processing

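With siZIP7_1 the called members numbered 39 to 44 when 1 library was left out (6 to 7 higher, 32 to 37 lower), with siZIP7_2 34 to 39 (6 to 8 higher, 27 to 32 lower), and between the siRNAs 41 to 43 (19 to 22 higher, 21 to 23 lower). In the main fit the shares called among all genes were 70.7%, 77.8% and 78.7% in these comparisons. By direction they were 34.8%, 38.5% and 38.1% higher, and 35.9%, 39.3% and 40.6% lower. Leave-one-out medians were -0.28 to -0.22, -0.28 to -0.21 and -0.043 to 0.009. The 1.2-fold null hypothesis left 17 calls with siZIP7_1 (1 higher, 16 lower), 25 with siZIP7_2 (3 higher), and 12 higher between the siRNAs. Under it 51.2%, 61.4% and 63% of all genes were called in either direction. Higher calls with siZIP7_2 were 13 under upper-quartile normalization (median -0.15), 12 with at least 10 counts in every library (median -0.18), and 4 among members with little shared sequence (median -0.31). The median between the siRNAs was 0.026 with DESeq2 and also 0.026 with its size factors, 0.072 under upper-quartile normalization, 0.042 with at least 10 counts, 0.012 in the pairwise fit, 0.013 after centring on all genes, 0.004 without siZIP7_1 library 2, 0.009 without siZIP7_2 library 1, -0.057 with no filter, and -0.099 among members with little shared sequence. Among the 33 members with library values, changes of sign were seen in genes that had not passed the test. These were POMP with siZIP7_1 (0.012 with at least 10 counts, 0.015 under upper-quartile normalization, -0.062 to 0.041 leaving out libraries), PSMG3 with siZIP7_2 (0.028 and 0.060 under the same settings), and PSMD12 with siZIP7_2 (-0.046 with no filter, -0.025 to 0.057 leaving out libraries) and between the siRNAs (0.009 under upper-quartile normalization). As raw count ratios, PSMB8 to PSMB5 was 0.437, 0.726 and 0.315 and PSMB9 to PSMB6 was 0.188, 0.0918 and 0.0363 for siNC, siZIP7_1 and siZIP7_2. These raw ratios are not divided by exonic length. As shares of siNC they equalled the per-length ratios, at 166% and 72.1% for PSMB8 to PSMB5. For PSMB9 to PSMB6 the shares were 48.8% and 19.3% on either scale. Replicate numbers did not pair the libraries (mean correlation of deviations 0.02 for equal numbers and -0.01 for different ones), and a replicate block gave 43, 38 and 43 called members. Depth limits the members with few counts, such as PSMC1, and PSMA8 and PSMB11 could not be tested.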
